A study of Homo sapiens with 6 samples.

Results

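Epithelial-mesenchymal transition is driven by a small set of transcription factors, and 6 of them were followed here with the antisense gene of ZEB1 and the structural gene VIM. The 8 genes are ZEB1, ZEB1-AS1, ZEB2, SNAI1, SNAI2, TWIST1, PRRX1 and VIM, taken by name from a table of 61155 gene symbols. The cells were MDA-MB-231, a human breast cancer line that lacks hormone receptors and has a mesenchymal form. RNA sequencing covered 3 control libraries and 3 libraries after knockdown of VASP, an actin filament elongation factor. Cells of both groups were grown in the same medium and harvested 48 hours after transfection by a lipid reagent. By title the groups are plko and shVASP, names from a short hairpin vector system. The characteristics instead give siRNA, negative control or against VASP, and the labels do not settle which was used. A single line was studied. The control columns of the table extend the title of 1 control sample and may be repeats of 1 culture, and no label speaks of separate cultures for either group. The p-values given here thus reflect only library-to-library spread, which may be technical. The comparison gives the change of these transcripts in cells with less VASP.

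ZEB1 and ZEB2 are large zinc finger and homeodomain repressors, and SNAI1 (Snail) and SNAI2 (Slug) are smaller zinc finger repressors. Both kinds bind the E-box word CACCTG, read as CAGGTG on the other strand, and shut down epithelial genes such as CDH1, the gene of E-cadherin. TWIST1 is a helix-loop-helix factor and PRRX1 a homeodomain factor, and both drive the same change of form. VIM encodes vimentin, the intermediate filament protein of mesenchymal cells and a standard marker of the finished transition. ZEB1-AS1 is a long noncoding RNA transcribed away from ZEB1 on the opposite strand.

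The ZEB1 locus carried both changes reported below, so its start region is shown first, from RefSeq on GRCh38.p14. Of the 12 windows listed for 5 of the 8 genes, each running from 250 bases before to 50 bases after a start, 7 belong to ZEB1 and 2 to ZEB1-AS1. The windows with the most E-box words are printed, ZEB1 at chr10:31318966-31319265 on the plus strand and ZEB1-AS1 at chr10:31319046-31319345 on the minus strand. Capitals mark CACCTG or CAGGTG.
ZEB1: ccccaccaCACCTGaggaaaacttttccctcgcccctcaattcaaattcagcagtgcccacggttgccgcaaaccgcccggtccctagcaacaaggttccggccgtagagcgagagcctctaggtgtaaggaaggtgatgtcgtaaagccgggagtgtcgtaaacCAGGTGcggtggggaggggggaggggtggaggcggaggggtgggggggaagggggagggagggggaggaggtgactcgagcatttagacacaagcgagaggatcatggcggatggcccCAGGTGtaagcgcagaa
ZEB1-AS1: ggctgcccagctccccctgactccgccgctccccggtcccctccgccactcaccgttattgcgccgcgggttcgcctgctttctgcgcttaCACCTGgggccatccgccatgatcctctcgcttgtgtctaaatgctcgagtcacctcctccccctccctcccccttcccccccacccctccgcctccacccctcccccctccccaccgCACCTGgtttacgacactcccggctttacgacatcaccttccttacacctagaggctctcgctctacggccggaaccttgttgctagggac
The 2 starts lie 121 bases apart and point away from each other, and the windows share 220 bases. The printed ZEB1 window holds 3 E-box words, with first bases at -242, -85 and 34 counted from its start. The other ZEB1 windows hold 1 word at most, and the other ZEB1-AS1 window holds none. The words at genome positions 31319131 and 31319249 are the same 2 that stand in the ZEB1-AS1 window. Among all 35116 windows of the table, 20.6% hold the word on either strand and 0.635% hold it 3 times or more. The printed windows were picked for their words, so these shares do not measure how unusual they are. The single windows of ZEB2, VIM and PRRX1 do not hold these letters. A match is a description of the sequence and not a binding site.

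The libraries held 28856610 to 30055503 counts each, and VASP mRNA went from 164 ± 9.04 to 12.7 ± 0.355 CPM (counts per 1000000 of the TMM-scaled library total, mean ± SD, n = 3 each), 12.9-fold lower. Markers of the line were read from a list of 10 genes, and its identity is taken from the label. Of the hormone receptor genes, PGR had 0 to 3 counts in any library, while ESR1, with 15 to 24, passed the filter on low counts. ERBB2 was expressed, with a control mean of 107 CPM against 97.8 CPM for the knockdown group. The epithelial gene EPCAM also passed that filter, with group means of 6.42 and 5.43 CPM in the same order. VIM, CD44, AXL and NT5E had 558 CPM or more in both groups, KRT5 had 0 counts in every library, and CDH1 had 0, 3 and 1 counts in control and 1, 3 and 1 in knockdown. Of 9 fibroblast and stromal markers, DCN, LUM and PDPN were at 0 in every library and only COL1A1 passed the filter on low counts. Of 9 blood and endothelial markers, 2 passed that filter, and the list summed to 5.25 to 6.34 CPM in control and 3.58 to 5.51 CPM in knockdown. PECAM1 among them fell 1.38-fold to 2.05 CPM (edgeR adjusted p = 0.026), a call lost without control library 1 (0.12), without knockdown library 3 (0.14) and in DESeq2 (0.079). Fold change followed GC content across all 16207 tested genes with a GC value: the median log2 fold change was 0.18 in the decile lowest in GC and -0.23 in the highest. Values corrected for GC content and length are given for the members and for some of the named list genes. Genes printed without them later can move as well: the log2 fold change of GAS6 went from -0.60 to -0.43 and that of COL5A1 from 0.87 to 1.03. The part of GC content in these results was not tested.

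Of the 8 genes, 7 passed the filter, and 2 of these 7 passed the test, ZEB1 upward and ZEB1-AS1 downward. By edgeR's quasi-likelihood test at an adjusted p under 0.05, 37.2% of the 16633 genes tested passed, 18.9% upward and 18.3% downward, so a count of 2 in 7 is not above the background. The groups did not overlap for the same 2 genes, against 47.6% of all genes tested. The median log2 fold change of the 7 was 0.05, against -0.01 over all genes tested. In bulk RNA, fewer cells that carry a transcript and less of it per cell cannot be told apart.

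**Figure D1:**
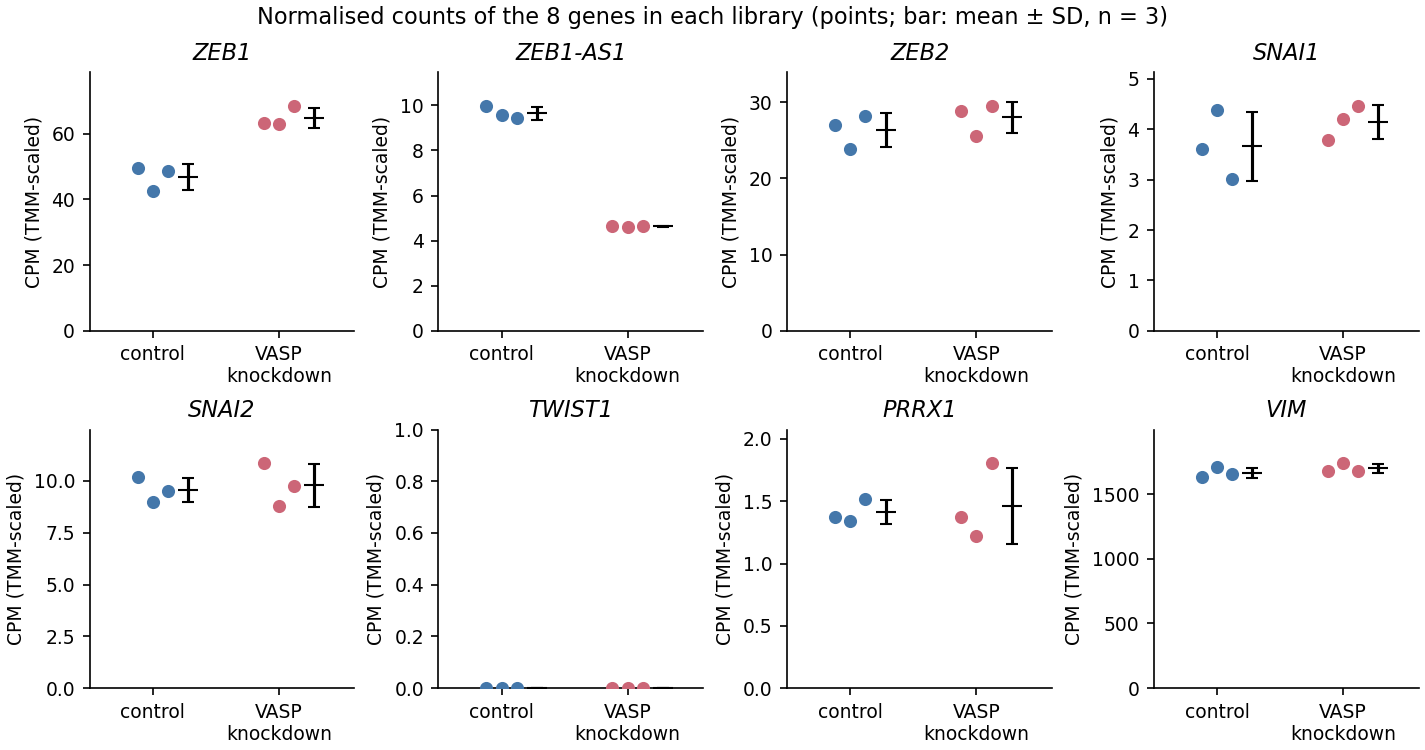
TMM-scaled CPM of the 8 genes (vertical axes, each from 0) in the 3 control and 3 VASP knockdown libraries, each point a library and each bar the mean ± SD. ZEB1 lies higher and ZEB1-AS1 lower in every knockdown library than in any control library, while the groups overlap for ZEB2, SNAI1, SNAI2, PRRX1 and VIM and TWIST1 is at 0 throughout.

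ZEB1 (ENSG00000148516, GRCh38 chromosome 10, 31318495 to 31529814, plus strand) was counted 1449, 1230 and 1406 times in control and 1935, 1864 and 2009 times after knockdown. In CPM these are 49.7, 42.4 and 48.6 against 63.1, 63.1 and 68.4. All 3 knockdown libraries lie above all 3 control libraries, and control library 2 is the lowest of the 6. ZEB1 rose 1.38-fold (log2 fold change 0.47, SE 0.06, 95% interval of the fold 1.27 to 1.51, edgeR adjusted p = 2.4e-06). Rises of this size or larger that also passed the threshold were found in 2.25% of the genes tested. Without that condition, ZEB1's log2 fold change was above that of 96.5% of all genes tested. ZEB1's transcript has 38.5% GC, which puts it in the second lowest decile, where the median log2 fold change was 0.15 and 39.7% of genes rose. Its log2 fold change was above that of 94.9% of the genes in its decile. After correction for GC content and length it was 0.35 (edgeR adjusted p = 4.3e-05).

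ZEB1-AS1 (ENSG00000237036, chromosome 10, 31206278 to 31320447, minus strand) had 291, 277 and 273 counts in control and 143, 136 and 136 in knockdown. The corresponding levels were 9.97, 9.55 and 9.44 CPM and 4.66, 4.60 and 4.63 CPM. No library of either group comes near the other group, and the 3 knockdown values lie between 4.60 and 4.66 CPM. The antisense gene fell 2.08-fold (log2 fold change -1.06, SE 0.10, adjusted p = 1.5e-08). A fall of 2-fold or more past the threshold was seen in 0.902% of the genes tested. With 43.6% GC, it belongs to a decile with a median log2 fold change of 0.06, and only 0.555% of the genes in that decile had a lower value. The corrected log2 fold change was -1.10.

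Divergent partners can be read against each other within a library, where scaling cancels. For every 100 counts of ZEB1 there were 20.1, 22.5 and 19.4 counts of ZEB1-AS1 without knockdown and 7.39, 7.30 and 6.77 with it. The ratio was 2.89-fold lower with knockdown, a mean log2 ratio of -2.28 ± 0.11 against -3.81 ± 0.07 (SD, n = 3 each). An exact permutation test of the log2 ratio, two-sided, gave p = 0.1, the smallest that 3 against 3 libraries allow. Neither gene's groups overlap and the genes differ in opposite directions, so this outcome was fixed and adds nothing to the 2 changes above. Merged exons of the genes share 396 bases, which is 10.3% of the ZEB1-AS1 exons and 4.58% of the ZEB1 exons, and fragments touching both were not counted for either. Counting ignored strand, and 2 further ZEB1-AS1 exon blocks lie 0.299 to 1.232 kilobases downstream of the printed ZEB1 start, inside ZEB1 introns, where unspliced ZEB1 RNA would be counted for ZEB1-AS1. How many such fragments there were was not tested.

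**Figure D2:**
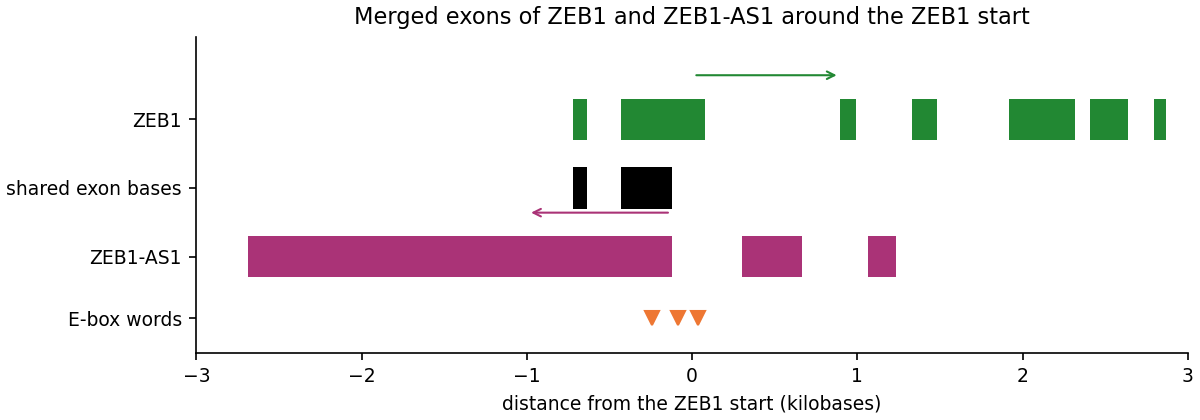
Merged exon blocks of ZEB1 (top) and ZEB1-AS1 (lower row) within 3 kilobases of the ZEB1 start on the horizontal axis, with exon bases held by both genes (black), the direction of transcription (arrows) and the 3 E-box words of the ZEB1 window (triangles). The shared bases, 396 in all, lie upstream of this ZEB1 start, where other ZEB1 transcripts begin inside the main ZEB1-AS1 exon.

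The neighbourhood of ZEB1 held both called and uncalled genes. Within 1 Mb of ZEB1, 10 other genes were tested, a window chosen after values were seen, and 3 of these passed the test, all upward. Over all genes tested 37.2% passed and 18.9% rose, so nothing particular to the locus is read from this count. KIF5B, the kinesin-1 heavy chain, rose 1.36-fold (edgeR adjusted p = 5.6e-07), EPC1, a subunit of the NuA4 acetyltransferase, rose 1.25-fold, and MTPAP, the mitochondrial poly(A) polymerase, rose with a log2 fold change of 0.30. The remaining 7 did not pass, among them ARHGAP12, with a log2 fold change of 0.13, and ZNF438, with -0.05.

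ZEB2 (ENSG00000169554, chromosome 2, 144364364 to 144521057, minus strand), the relative of ZEB1 that binds the same word, gave 27.0, 23.9 and 28.1 CPM in control and 28.9, 25.6 and 29.5 CPM in knockdown. The groups overlap, and each holds a low library. ZEB2 did not pass the test (log2 fold change 0.09, 95% interval -0.06 to 0.23, adjusted p = 0.36), and its corrected log2 fold change was 0.00. The ratio of ZEB1 to ZEB2 counts, a measure added after values were seen, went from 184, 178 and 173 ZEB1 counts per 100 of ZEB2 in control to 219, 246 and 232 in knockdown. These ranges do not overlap, the ratio was 1.30-fold higher with knockdown, and the exact two-sided permutation p was 0.1, again the smallest possible. ZEB2-AS1, the antisense gene at ZEB2, had 0 to 2 counts in any library, so a counterpart of the ZEB1-AS1 change could not be looked for there. Its exons share 1299 bases with those of ZEB2, 41.4% of the ZEB2-AS1 exons, and fragments touching both genes were not counted.

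Snail and Slug did not pass the test. SNAI1 (ENSG00000124216, chromosome 20, 49982980 to 49988886, plus strand) had 105, 127 and 87 counts in control and 116, 124 and 131 in knockdown. Its levels of 3.60, 4.38 and 3.01 CPM against 3.78, 4.19 and 4.46 CPM overlap, with the wider spread in control. The log2 fold change was 0.18 (95% interval -0.11 to 0.46, adjusted p = 0.33). Unlike the other tested members, SNAI1 is rich in GC, at 58.2%, in a decile with a median log2 fold change of -0.14, and its corrected value was 0.31 (adjusted p = 0.078). SNAI2 (ENSG00000019549) had 10.2, 9.0 and 9.54 CPM in control and 10.9, 8.79 and 9.74 CPM in knockdown, with the highest and the lowest library both in the knockdown group. Its log2 fold change was 0.03 (95% interval -0.16 to 0.23, adjusted p = 0.81), and turned to -0.04 with the correction.

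Neither of the other 2 factors was a major transcript. TWIST1 (ENSG00000122691, chromosome 7, 19020991 to 19117636, minus strand) had 0 counts in all 6 libraries. A count of 0 allows up to 3 counts in a library, 0.0998 to 0.104 CPM, and this limit covers counting error only. Its relative TWIST2 was also at 0. PRRX1 (ENSG00000116132, chromosome 1, 170662728 to 170739421, plus strand) had 40, 39 and 44 counts in control and 42, 36 and 53 in knockdown. Knockdown held both the lowest and the highest of these values, and the log2 fold change was 0.05 with a wide 95% interval of -0.35 to 0.45 (adjusted p = 0.87).

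VIM (ENSG00000026025, chromosome 10, 17228241 to 17237593, plus strand) was by far the most abundant member, with 47597 to 51433 counts in each library. Vimentin mRNA stood at 1631, 1706 and 1651 CPM in control and 1677, 1738 and 1680 CPM in knockdown. The groups overlap, and all 6 values lie within 1631 to 1738 CPM. VIM did not pass the test (log2 fold change 0.03, SE 0.05, adjusted p = 0.69), with a 95% interval of the fold of 0.948 to 1.10. Its 46.9% GC falls where the median log2 fold change was 0.03, and the corrected value was also 0.03. VIM-AS1, whose exons share 641 bases with VIM, had 68, 92 and 72 counts in control and 62, 80 and 72 in knockdown (log2 fold change -0.16, adjusted p = 0.48). The shared bases are 31.9% of the VIM-AS1 exons, and fragments touching both genes were not counted. Counting ignored strand, and how much of the VIM-AS1 count is antisense RNA was not tested. At the VIM locus neither the gene nor its antisense partner passed the test. The difference between the antisense genes was not tested.

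**Figure D3:**
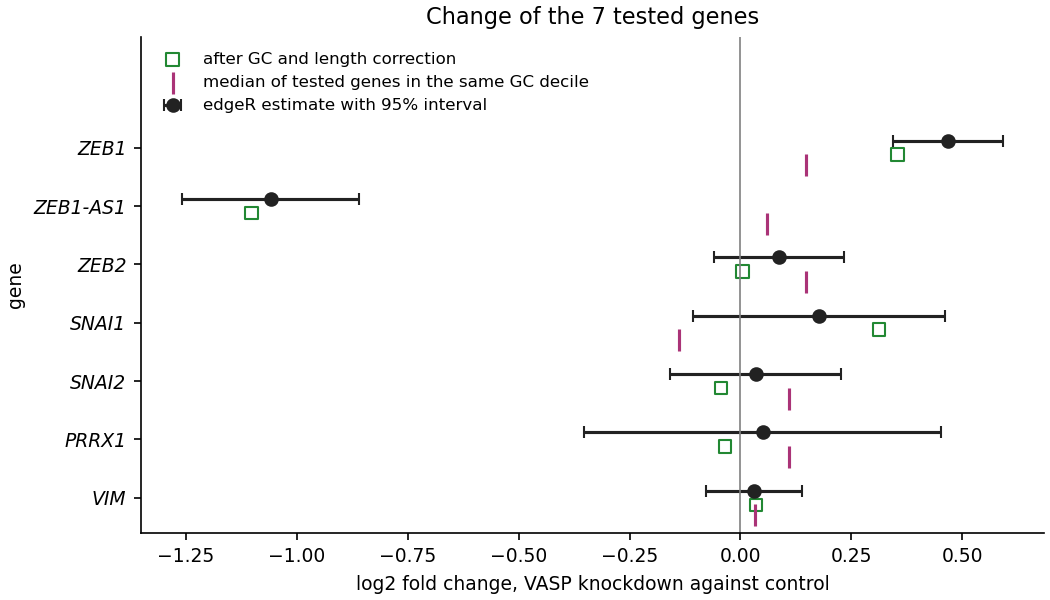
Log2 fold change of VASP knockdown against control (horizontal axis) for the 7 tested genes, with 95% intervals (circles), the value after correction for GC content and length (squares) and the median of all tested genes in the same GC decile (vertical ticks). The intervals of ZEB1 (0.34 to 0.59) and ZEB1-AS1 (-1.26 to -0.86) lie clear of 0 and of their ticks, whereas those of the other 5 span 0.

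Levels of different genes were compared as CPM per kilobase of merged exons, which depends on the annotated exon length. VIM led with 321 ± 7.48 in control and 328 ± 6.60 in knockdown (SD, n = 3 each), higher than 99.6% of the tested genes. ZEB1 followed at 5.42 ± 0.452 and 7.50 ± 0.356, above SNAI2 at 2.92 ± 0.180 and 2.99 ± 0.315 in every library. ZEB1 was thus the most abundant of the 6 factors per length. SNAI1 at 2.15 ± 0.404 and 2.43 ± 0.200 lay below SNAI2 in all 6 libraries, without overlap of their ranges. The next neighbours changed places: SNAI1 exceeded ZEB1-AS1 in 1 of 3 control libraries and in 3 of 3 knockdown libraries, and ZEB1-AS1 went from 2.50 ± 0.0730 to 1.20 ± 0.00804. ZEB2 stood at 1.06 ± 0.0893 and 1.13 ± 0.0837, over 24861 bases of merged exons, far more than the 8650 bases of ZEB1, and PRRX1 at 0.171 ± 0.0115 and 0.177 ± 0.0369.

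**Figure D4:**
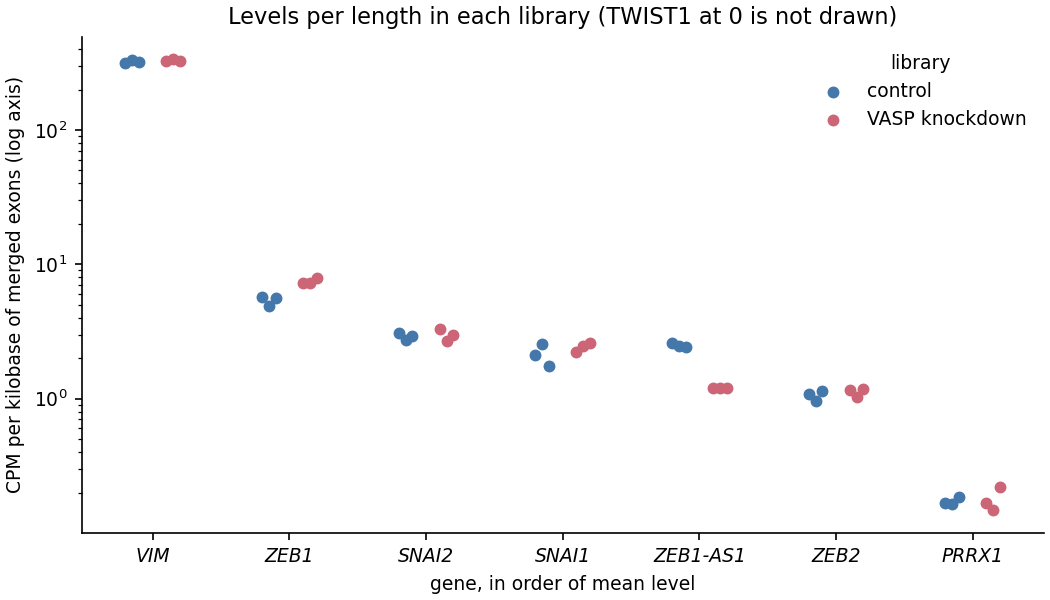
CPM per kilobase of merged exons (vertical log axis) of 7 genes in order of mean level, each point a library. VIM lies between 315 and 336 and ZEB1 between 4.90 and 7.91, while SNAI1 and ZEB1-AS1 change places between the group means, and TWIST1 at 0 cannot be drawn on a log axis.

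The summed level of the 6 factors per length went from 12.2, 11.3 and 11.6 in control to 14.2, 13.6 and 14.9 in knockdown. The 3 knockdown sums are the highest, with a mean 1.21-fold that of control (exact two-sided permutation p = 0.1, the smallest possible). ZEB1 made up 47.0%, 43.3% and 48.4% of that sum in control and 51.5%, 53.6% and 53.1% in knockdown, a share added after values were seen. Most of the difference in the sum of 2.50 lies in ZEB1, whose own mean level differed from 5.42 to 7.50.

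By the likeness of their pattern over the 6 libraries, MTMR2, a phosphoinositide phosphatase, and ERO1B, an oxidase of the endoplasmic reticulum, tracked ZEB1 most closely among 12338 genes compared (Pearson r = 0.999 each). Their own rises were smaller, with log2 fold changes of 0.25 and 0.24. For ZEB1-AS1 the closest were MARCH9, a membrane ubiquitin ligase, and COL8A1, a type VIII collagen chain that fell with a log2 fold change of -0.81. The 6 libraries fall into 2 groups, so any gene that differs between them scores high: 1945 genes had r over 0.9 with ZEB1 and 1629 with ZEB1-AS1, but only 33 with VIM and 64 with ZEB2.

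Genes around the 8 members were read from lists of the pathway, each given as counts past the test beside 37.2% over all genes tested. That share covers genes at all levels, not matched to the lists in level or GC content, and holds for the main setting alone. With the GC and length correction 2836 of 16207 genes rose and 1974 fell. With upper-quartile scaling 2702 of 16633 rose and 3402 fell. Related transcription factors of the transition had 2 up and 1 down of 17 tested (17.6%). SOX4, a factor that acts with TGF-beta in the transition, fell 2.14-fold from 34.6 ± 6.51 to 16.1 ± 1.46 CPM (adjusted p = 0.00059). ID2, an inhibitor of helix-loop-helix factors, rose 1.61-fold to 2.42 CPM, and GATA6 rose 1.29-fold. Corrected for GC and length, 5 rose and 2 fell, and with upper-quartile scaling 2 rose and 2 fell. The TWIST partners TCF3 and TCF12 did not pass, with log2 fold changes of -0.06 and 0.01, and SNAI3, a further Snail relative, went from 1.04 to 0.859 CPM and did not pass.

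The epithelial factors that oppose ZEB and SNAI proteins had 3 up and 1 down of 13 tested (30.8% against 37.2%). GRHL2 and MIR200CHG, the host of a miR-200 cluster that targets ZEB1 and ZEB2, had 0 counts in every library. TFAP2C, a factor of the luminal lineage, rose 1.34-fold from 50.8 ± 1.75 to 67.9 ± 3.02 CPM (adjusted p = 2.1e-06), and KLF4 rose 1.17-fold. ELF3, an epithelial ETS factor, fell 1.67-fold from 10.3 ± 2.20 CPM. GRHL1 was called upward at 1.61-fold from only 0.677 CPM, a call lost in DESeq2 (adjusted p = 0.10) and without either control library 2 or 3 or knockdown library 1 or 3 (adjusted p of 0.0508 to 0.109). Splicing regulators ESRP1 and ESRP2 stood at 5.15 and 6.79 CPM in control and did not pass.

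Epithelial genes that ZEB and SNAI proteins are known to repress had 8 members down and 3 up of 31 tested, a share of 35.5%. Their median log2 fold change was -0.21, and -0.07 after the GC and length correction, which left 8 down and 2 up. The list is rich in GC, with a median of 55.7%. MUC1, the membrane mucin, fell 1.85-fold from 17.4 ± 2.41 to 9.35 ± 0.713 CPM (adjusted p = 2.5e-07). The tight junction claudin CLDN1 fell 1.38-fold, the protease inhibitor SPINT2 1.35-fold, the laminin chain LAMA5 1.40-fold from 767 ± 54.2 CPM, and JUP, the plakoglobin of junctions, 1.41-fold. Corrected log2 fold changes were -0.51 for MUC1, -0.54 for CLDN1, -0.34 for SPINT2, -0.20 for LAMA5 and -0.33 for JUP.

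Promoter windows of this list were read for the E-box word, which known targets of these repressors are expected to carry, so the count is no independent support: 19 of 29 windows (65.5%) against 20.6% of all windows, and 17 of the 22 genes with a window. Mesenchymal genes, by comparison, held it in 5 of 33 windows (15.2%). CRB3, a polarity gene, and CLDN7, a claudin at 0 counts in every library, have the most words in the list, and their RefSeq windows on GRCh38.p14 are shown for that reason, CRB3 at chr19:6464021-6464320 on the plus strand and CLDN7 at chr17:7262429-7262728 on the minus strand. Capitals mark the words, 5 in each window.
CRB3: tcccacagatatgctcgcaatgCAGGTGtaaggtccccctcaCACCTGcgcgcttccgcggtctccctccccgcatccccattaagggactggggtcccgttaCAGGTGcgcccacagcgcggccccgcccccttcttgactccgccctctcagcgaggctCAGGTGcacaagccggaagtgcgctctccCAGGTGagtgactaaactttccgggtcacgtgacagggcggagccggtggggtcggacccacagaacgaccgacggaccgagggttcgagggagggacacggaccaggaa
CLDN7: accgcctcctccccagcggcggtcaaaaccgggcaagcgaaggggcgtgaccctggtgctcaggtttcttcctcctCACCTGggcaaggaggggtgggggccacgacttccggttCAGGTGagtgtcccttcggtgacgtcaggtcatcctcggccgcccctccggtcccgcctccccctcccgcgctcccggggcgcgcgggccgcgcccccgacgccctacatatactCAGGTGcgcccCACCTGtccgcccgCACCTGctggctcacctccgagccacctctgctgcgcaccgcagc
CRB3, named after its values were seen, fell 1.68-fold, from 1.45 to 0.858 CPM (adjusted p = 0.010, and 0.053 after the GC and length correction). Genes with and without the word were both found among the called and the uncalled. Of the 17 genes with it, 4 fell, 2 rose, 9 did not pass and 2 were not tested, and of the 5 without it 2 fell and 3 did not pass.

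Mesenchymal genes of the transition were mostly lower where called: 8 of 25 tested fell and 1 rose, 36.0% in all, with a median log2 fold change of -0.05. LOX, which crosslinks collagen, fell 1.42-fold, the collagenase MMP14 1.36-fold, the matrix protein TGFBI 1.40-fold, and fibronectin, FN1, 1.77-fold from 1726 ± 268 to 973 ± 53.0 CPM. COL5A1, a fibrillar collagen chain, was the member that rose, 1.82-fold from 6.85 ± 1.35 to 12.5 ± 0.333 CPM (adjusted p = 2.6e-06). After the correction 7 fell and 5 rose, where over all genes 1974 of 16207 fell and 2836 rose. CDH2, the gene of N-cadherin, had 1 to 3 counts in each library and could not be compared.

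Corepressors and chromatin partners through which ZEB and SNAI proteins act had 11 up and 8 down of 33 tested, 57.6% against 37.2%. SUZ12 and EZH2, subunits of Polycomb complex PRC2, rose, SUZ12 1.45-fold from 73.3 ± 1.62 to 106 ± 1.34 CPM (adjusted p = 9.6e-09) and EZH2, its methyltransferase, 1.32-fold. SIRT1, a deacetylase bound by ZEB1, rose 1.27-fold. The CtBP corepressors that ZEB proteins recruit went the other way: CTBP2 fell 1.42-fold from 85.2 ± 4.20 to 60.0 ± 0.303 CPM (adjusted p = 6.6e-08), and CTBP1 fell 1.24-fold, a call lost after the GC and length correction (log2 fold change -0.16, adjusted p = 0.062). With that correction 12 members rose and 5 fell.

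Kinases and ubiquitin enzymes that set the stability of SNAI and TWIST proteins had 14 up and 5 down of 32 tested (59.4% against 37.2%), and 8 up and 7 down with upper-quartile scaling. The count of 19 was 11 after the GC and length correction (10 up, 1 down), 9 without control library 2, 12 without knockdown library 2 and 9 without knockdown library 3. Calls over all genes were fewer too, 6187 in the main setting against 4810, 4481, 5214 and 5010 in the same order. GSK3B, the kinase that marks Snail for destruction, fell 1.23-fold from 83.1 ± 2.29 to 67.6 ± 2.76 CPM (adjusted p = 6.5e-05). The COP9 signalosome subunit COPS2 rose with a log2 fold change of 0.32 (0.18 after the correction), the deubiquitinase USP47 with 0.29 and the F-box protein FBXO45 with 0.28. The ubiquitin ligase STUB1 fell 1.30-fold, a call lost after the correction (log2 fold change -0.13, adjusted p = 0.16).

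The network around the vimentin filament had 4 up and 9 down of 36 tested, close to the background at 36.1%, with 8 up and 3 down after the correction. ROCK2 and ROCK1, kinases that phosphorylate vimentin and myosin light chain, rose 1.48-fold and 1.28-fold, ROCK2 from 56.6 ± 1.26 to 83.5 ± 1.72 CPM (adjusted p = 8.6e-09). The actin crosslinker FLNA, which binds vimentin, fell 1.45-fold (log2 fold change -0.53, and -0.34 after the correction), and BFSP1, a filament protein of the lens, fell 1.66-fold from 26.4 ± 2.36 CPM. KRT7, a simple epithelial keratin, fell 1.24-fold, a call lost after the correction (log2 fold change -0.11, adjusted p = 0.073).

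Signals that induce the factors had 8 up and 11 down of 37 tested, 51.4%, with a median log2 fold change of -0.01. GAS6, the ligand of AXL, fell 1.52-fold from 299.5 ± 13.6 to 197 ± 13.6 CPM (adjusted p = 8.7e-09). JUN, a subunit of AP-1, fell 1.41-fold, the ligand TGFB2 with a log2 fold change of -0.37, and PDGFB, a chain of platelet-derived growth factor, 1.87-fold from 3.41 CPM. MET, the receptor of hepatocyte growth factor, rose 1.30-fold to 220 ± 2.02 CPM, while the ligand gene HGF had 0 counts in every library. The call was kept by each of these 5 genes under the 12 alternative settings run.

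**Figure D5:**
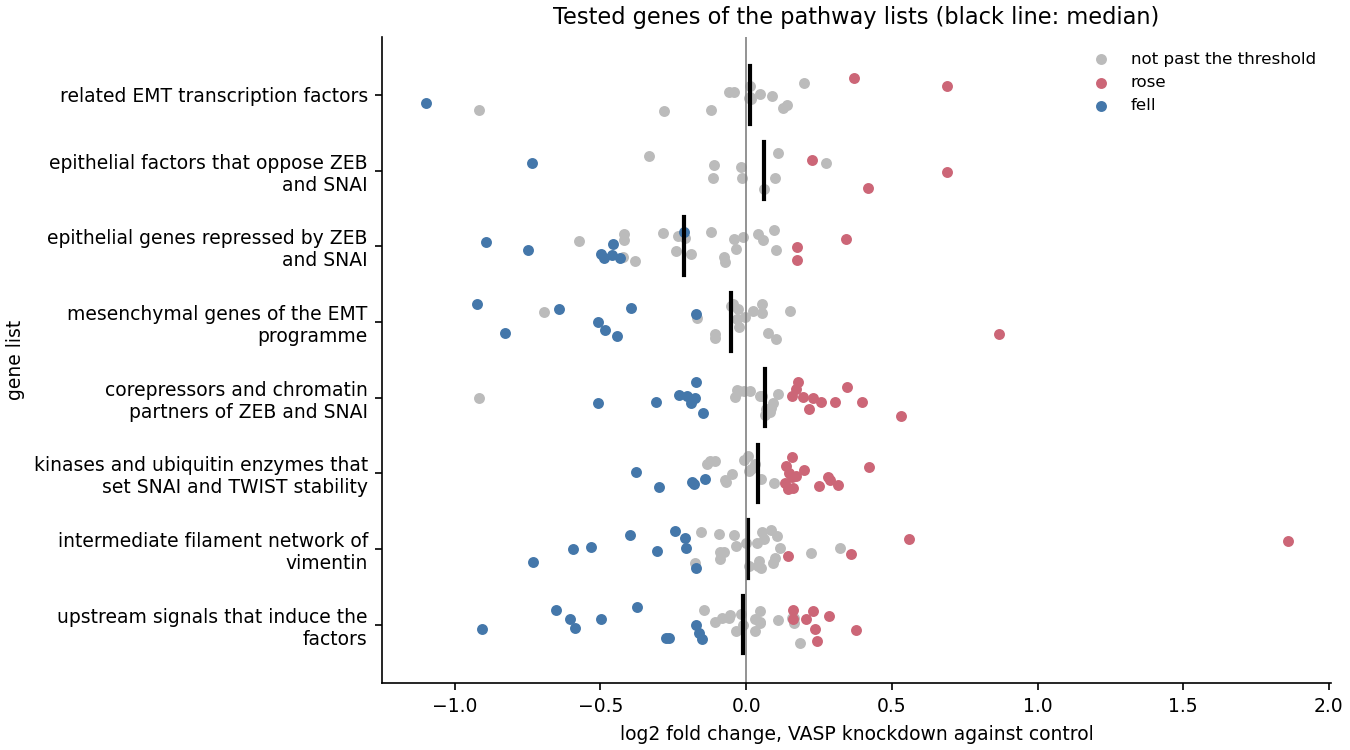
Log2 fold change of VASP knockdown against control (horizontal axis) for the tested genes of 8 pathway lists, each point a gene coloured by edgeR call and each black line the list's median, with vertical scatter added at random. The epithelial genes repressed by ZEB and SNAI have the lowest median, -0.21, and the far point at 1.86 in the vimentin network is PRPH, a filament gene at 0.126 CPM in control, named after its values were seen.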

How the data were processed

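RNA of 6 libraries was sequenced in paired-end mode. Per the file headers, the values the authors deposited are raw fragment counts for each symbol, from featureCounts 1.6.4 over the exons of GENCODE release 32 on GRCh38, with no strand, multi-mapping or multi-overlap option. The submitters' processing notes list STAR 2.7.1a and Trim Galore 0.6.4. Merged exon length per symbol is the authors' own column. Control columns carry no sample's own name and are numbered in table order. Same-group libraries differed by more than counting noise (chi-square over its degrees of freedom 5.11 to 8.67), so none is a copy of another, but repeat libraries of 1 culture would do so too. Each was counted as 1 replicate on the labels alone.

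Counts were filtered with filterByExpr, scaled by TMM and tested with edgeR 4.0.16 (glmQLFit, robust, glmQLFTest, two-sided) in R 4.3.3, group as the sole term, p-values adjusted by Benjamini and Hochberg over the 16633 genes tested, threshold 0.05. The SE is the log2 fold change divided by the square root of F. GC content is that of the longest GENCODE 29 transcript per symbol, matched for 97.4% of tested genes, and the correction fits, per library, natural splines of GC content and length with 5 degrees of freedom each. DESeq2 1.42.0, other scalings and filters, and leaving out each library were alternatives, and the edgeR step was tested on simulated data. Members and lists were chosen with earlier results of these data known. Named genes are the members, VASP, up to 5 called genes per list with the smallest p, and for each tested member the 2 genes most correlated in log2 CPM, of which those for ZEB1 and ZEB1-AS1 are printed. The 11 lists hold genes known from the field, and exact permutation tests were used for ratios and sums. Floors cover counting error only.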

Additional observations from a re-analysis of the deposited data

How the results depend on the processing

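ZEB1 and ZEB1-AS1 kept their direction and their call under all 12 alternative settings, with log2 fold changes of 0.35 to 0.51 and -1.10 to -1.03 and edgeR or DESeq2 adjusted p of at most 0.0002 and 5.5e-06. No alternative brought ZEB2, SNAI1, SNAI2, PRRX1 or VIM past the threshold, where the smallest adjusted p was 0.078. SNAI2 turned to -0.043 and PRRX1 to -0.035 with the GC and length correction, and leaving out single libraries gave -0.045 to 0.12 and -0.12 to 0.18. The count over all genes ran from 4481 to 6399, and was 4810 of 16207 with the GC and length correction against 6187 of 16633 in the main setting. Without a low-count filter 3417 genes rose and 2685 fell, against 3148 and 3039. Called related factors went from 3 to 7 and stability enzymes from 19 to 11 with the GC and length correction, and the stability enzymes ran from 9 to 19 when single libraries were left out. Without a low-count filter the called signals were 11 up and 9 down, against 8 and 11, and the opposing epithelial factors 3 up and 3 down, against 3 and 1. The blood and endothelial list had 1 gene called (PECAM1), 0 by DESeq2 and 0 to 1 without single libraries. The markers of the line had 1 (ERBB2), 2 with upper-quartile scaling, 0 with the GC and length correction, 0 without a low-count filter and 0 to 1 without single libraries. The log2 ratio of ZEB1-AS1 to ZEB1 differed by -1.57 to -1.47 and the summed level by 2.16 to 2.81 without single libraries. No paired analysis was possible because no label pairs a control column with a knockdown library. Counts of 36 to 53 for PRRX1 limit its precision.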
